A study of Homo sapiens with 18 samples.

Results

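PEA2 and PEO4 are established human ovarian cancer cell lines that the labels both give as clinically platinum-resistant, and their open chromatin was set side by side here to find the genes and distal sites at which 2 resistant lines differ. Open chromatin was measured by ATAC-seq, in which the Tn5 transposase inserts sequencing adapters where DNA is accessible, with 3 libraries per line out of 18 libraries of 6 lines in the series. PEA2 and PEO4 were each derived from high-grade serous ovarian cancer after resistance had developed, and each has a partner line of the same origin that the labels give as sensitive, PEA1 and PEO1. Per the study, PEA1 and PEA2 came from ascites of a patient and PEO1 and PEO4 from another patient. PEA1 was taken before platinum chemotherapy, whereas PEO1 was taken after it but before clinical resistance. A2780 and its platinum-resistant derivative CP70 make up the rest. All lines were grown in the same medium, RPMI-1640 with glutamine and fetal bovine serum, and the labels name no drug treatment. Each line is a single culture lineage, so a difference between PEA2 and PEO4 is a difference between 2 lines and not between 2 kinds of tumor. It also cannot be told apart from a difference between the patients. Replicates were numbered in the labels, which do not say whether they came from separate cultures, so each p-value measures the spread between these libraries.

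The deposited table lists 89428 windows of 1000 bp on hg19 (GRCh37), and 79072 of them averaged above 1 FPKM across the 6 PEA2 and PEO4 libraries and were tested. FPKM, fragments per kilobase scaled to the library's mapped reads, equals the usual RPM value here because every window is 1000 bp long. Differences are PEA2 minus PEO4 on the quantile-normalized log2(FPKM + 0.1) scale, tested with limma and Benjamini-Hochberg adjustment over all windows, and FPKM values are given on the deposited scale. A window was called when the log2 difference exceeded 2 in size at an adjusted p below 0.001. Of the 79072 windows, 16506 (20.9%) were called, 9159 (11.6%) higher in PEA2 and 7347 (9.29%) higher in PEO4.

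The libraries held 17300163 to 22537463 reads in PEA2 and 17201132 to 20836579 in PEO4, but the listed windows took 17.05 to 20.7% of the reads in PEA2 and 32.8 to 35.9% in PEO4. FPKM values of PEO4 were therefore higher on the whole, with a median over the tested windows of 2.54 against 1.97 in PEA2, and quantile normalization removes this difference by giving all 6 libraries the same distribution. On the deposited scale 31.6% of the calls were higher in PEA2, against 55.5% after quantile normalization and 48% after subtracting each library's median, and the median log2 difference of all windows moved from -0.12 to -0.68 and -0.33. Of the serous carcinoma markers PAX8, WT1, SOX17, MECOM, EMX2, KRT7, KRT8, KRT18, EPCAM and MUC16, 9 of 10 had a listed start window, at 1.27 to 4.10 FPKM in PEA2 and 0.661 to 20.6 FPKM in PEO4, and MUC16 had none. Start windows were listed for 1 of 5 leukocyte, 1 of 4 endothelial and 1 of 5 fibroblast markers, at 3.78, 2.79 and 1.12 FPKM in PEA2 and 2.56, 1.94 and 2.17 FPKM in PEO4 for CD14, KDR and COL1A2. Their log2 differences were 1.26, 1.01 and -0.60, and their part in the results was not tested.

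An accessible promoter holds the start of a gene that can be transcribed, whereas accessible sites far from promoters are often enhancers, which transcription factors of a cell's lineage and signaling state keep open and which differ more between cell types. Reads at a window also depend on how many copies of that stretch the genome holds. AP-1, the dimer of FOS and JUN proteins, and homeobox factors, among them the HOX proteins that mark position along the body axis and the segments of the Müllerian duct, are 2 families that bind such distal sites.

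Sequences were taken from the named distal windows described below, because the share of called distal windows that held a motif differed most between the directions for AP-1 (TGANTCA) on the PEA2 side and for homeobox (TAATTA) on the PEO4 side. Each is 61 bases of the plus strand of GRCh37, 5′ to 3′, centered on the match nearest to the middle of the window, with the match in capitals and inside the window, and is named by the gene with the nearest start. The first 4 lay in windows higher in PEA2 and hold an AP-1 match.
NAA20 (chr20:19945363-19945423): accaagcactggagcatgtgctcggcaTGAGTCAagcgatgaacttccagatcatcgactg
MROH2B (chr5:40996434-40996494): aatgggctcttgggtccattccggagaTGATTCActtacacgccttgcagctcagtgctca
RIN2 (chr20:19797910-19797970): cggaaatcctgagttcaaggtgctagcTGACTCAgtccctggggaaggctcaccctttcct
KRBA1 (chr7:149387407-149387467): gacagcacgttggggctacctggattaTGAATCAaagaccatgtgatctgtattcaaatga
Another 2 lay in windows higher in PEO4 and hold a homeobox match, and 23 bases of the CITED2 sequence lie outside its window.
FAT1 (chr4:187686037-187686097): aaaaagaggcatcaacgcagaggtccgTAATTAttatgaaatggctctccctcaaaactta
CITED2 (chr6:140922878-140922938): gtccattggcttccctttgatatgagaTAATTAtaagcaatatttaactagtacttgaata
Of the 8 named distal windows per direction, 4 of those higher in PEA2 held AP-1 and 2 of those higher in PEO4 held the homeobox letters, so most of the named distal windows higher in PEO4 do not carry the motif that was more common in their direction.

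At the minimum mean of 1 FPKM most calls lay away from promoters, whereas at a minimum of 5 FPKM 923 start windows and 498 distal windows were called. Windows over the start of a protein-coding gene, called start windows here, made up 17408 of the windows tested, and 389 of them were called higher in PEA2 and 1271 higher in PEO4. Distal windows, with the center more than 5 kb from every protein-coding start, made up 43613 (55.2%), of which 7781 (17.8%) were called higher in PEA2 and 4904 (11.2%) higher in PEO4. Distal windows were 85.0% of the calls higher in PEA2 and 66.7% of the calls higher in PEO4, whereas start windows were 4.25% and 17.3%. The median log2 difference was -0.50 over start windows and 0.29 over distal windows. Median GC content was 61.5% in start windows and 46.9% in distal windows, and removal of the GC trend of each library left 57.5% of all calls higher in PEA2.

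Spearman's correlation of the deposited values between a PEA2 and a PEO4 library averaged 0.50 over the 17838 listed start windows and 0.015 over the 51971 listed distal windows (9 library pairs each). Between the sensitive lines PEA1 and PEO1 the distal value was 0.069, so a value near 0 was not particular to the resistant lines. The distal values were 0.41 between PEA2 and PEA1 and 0.53 between PEO4 and PEO1. At distal sites each resistant line thus ranked its windows more like its own sensitive partner than like the other resistant line. The study, in contrast, found PEA2 and PEO4 to cluster together, apart from PEA1 and PEO1. Its correlations used windows with consistent differential accessibility and an adjustment for cell line. No such choice or adjustment was made here, so the results are not on the same measure. Over the windows tested the correlation was 0.47 at start windows and -0.18 at distal windows. The second value is lowered by the minimum on the mean over both lines, which keeps a window low in one line only where it is high in the other, and the empty corner of the plot of normalized values shows this minimum. The study also filtered windows by depth, and how far such a filter lowers the values over listed windows was not tested. These correlations are descriptions over windows of the same libraries.

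**Figure D1:**
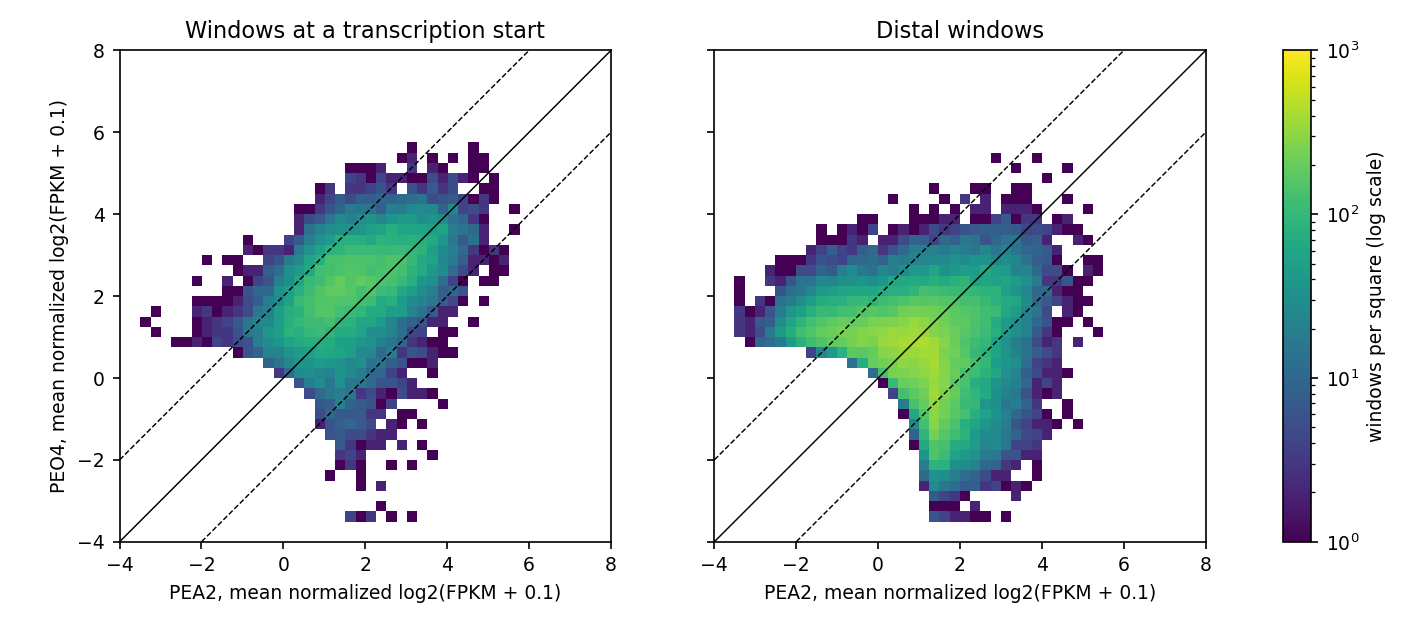
Mean normalized log2(FPKM + 0.1) of each window tested in PEA2 (x axis) and PEO4 (y axis), as the number of windows per square on a log color scale, for the 17408 start windows and the 43613 distal windows. The solid line marks equal values and the dashed lines a log2 difference of 2. Start windows run along the solid line but are shifted toward PEO4 (median log2 difference -0.50), whereas distal windows spread along both axes.

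Of the 8 named start windows toward PEA2, which had the largest fitted differences, 5 were windows in which no PEO4 library had a read. GSTT1, a glutathione S-transferase that detoxifies reactive compounds, had 5.50, 5.49 and 4.97 FPKM in the 3 PEA2 libraries at chr22:24383701-24384700 and 0 in all 3 PEO4 libraries. Set against 3 reads per library, PEA2 was at least 34.1-fold higher (log2 difference 6.43 ± 0.26 (SE), adjusted p = 1.56e-10). GSTT1 stood at 2.999 FPKM in PEA1 and 0 FPKM in PEO1, so the line pairs and not the resistant lines shared the state of this window.

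The promoter of NF2, the gene of the tumor suppressor merlin, an upstream regulator of Hippo signaling, followed the same division. Its window at chr22:29998801-29999800 had 4.34, 3.58 and 3.95 FPKM in PEA2 and 0 in every PEO4 library, at least 25.4-fold higher in PEA2 (log2 difference 5.88 ± 0.27 (SE), adjusted p = 3.75e-10). PEA1 had 3.75 ± 0.736 FPKM (SD, n = 3) and PEO1 0.0582 ± 0.101 FPKM.

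On chromosome 9, CDKN2A, which encodes the cell cycle inhibitors p16 and ARF, DMRTA1, a transcription factor of the DMRT family, and KLHL9, a substrate adaptor of a CUL3 ubiquitin ligase, had reads in every PEA2 library and none in PEO4. At the CDKN2A start window named here, chr9:21994201-21995200, PEA2 had 3.90, 3.12 and 3.11 FPKM, at least 21.7-fold more than PEO4. DMRTA1 had 3.57, 1.91 and 4.08 FPKM in PEA2 and KLHL9 had 2.75, 2.31 and 3.02 FPKM. The adjusted p was 7.75e-10 for CDKN2A, 6.49e-09 for DMRTA1 and 3.05e-09 for KLHL9, and the PEO1 means were 0.0291, 0 and 0 FPKM.

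These 3 genes lay in 2 neighboring stretches with at most 1 read in PEO4. In PEO4, 19 consecutive listed windows at chr9:21031201-21996100 had 0 reads in all libraries, against a median of 2.50 FPKM in PEA2, and the next stretch of 8 windows at chr9:22008601-23822200, from CDKN2B to ELAVL2, had 1 read in total against 2.66 FPKM. The first stretch also includes MTAP, an enzyme of methionine salvage, and the median over it was 1.79 FPKM in PEA1 and 0 in PEO1. The 5 Mb bin around these stretches held 33 windows with a median log2 difference of 4.79, the highest of 573 bins, and after removal of that bin median the CDKN2A window differed by 0.77.

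The other 3 named start windows toward PEA2 had reads in PEO4. RIN2, a RAB5 exchange factor of endocytosis, had 8.90, 6.07 and 7.81 FPKM in PEA2 and 0.233, 0.192 and 0.0996 FPKM in PEO4 at chr20:19866601-19867600 (log2 difference 5.63 ± 0.23 (SE), adjusted p = 1.77e-10). PPFIBP2, a liprin scaffold protein, had 6.05, 4.28 and 5.06 FPKM in PEA2 against 0.174, 0.144 and 0.0996 FPKM (log2 difference 5.16 ± 0.23 (SE), adjusted p = 3.03e-10), and was at 0.412 FPKM in PEA1 and 0.361 FPKM in PEO1, so it was high in PEA2 alone among these 4 lines. PRKG2, a cGMP-dependent protein kinase, had 5.11, 2.95 and 3.51 FPKM in PEA2 and 0.116, 0.0480 and 0 FPKM in PEO4, where the last library had no read, and stood at 2.55 FPKM in PEA1 and 0.0662 FPKM in PEO1. With the median of each 5 Mb bin removed, RIN2, PPFIBP2 and PRKG2 differed by 2.92, 3.94 and 4.91 (log2). No PEA2 library overlapped a PEO4 library at any of these windows. Over all windows tested 79.1% had libraries of the lines that did not overlap, so the absence of overlap adds little to the call.

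Toward PEO4, PABPC5, a cytoplasmic poly(A)-binding protein gene on the X chromosome, was among the 8 named start windows. Its window at chrX:90689401-90690400 had 9.59, 10.6 and 12.1 FPKM in PEO4 and 0.220, 0.116 and 0.133 FPKM in PEA2 (log2 difference -4.79 ± 0.24 (SE), adjusted p = 6.32e-10), and 2.47 FPKM in PEA1 and 17.7 FPKM in PEO1. DYRK1B, a kinase that holds cells in quiescence, had 18.02, 20.1 and 15.5 FPKM in PEO4 and 0.330, 0.636 and 0.488 FPKM in PEA2 (log2 difference -4.22 ± 0.21 (SE), adjusted p = 6.98e-10). CHI3L1, the secreted glycoprotein YKL-40, had 14.3, 15.3 and 13.3 FPKM in PEO4 and 0.440, 0.289 and 0.488 FPKM in PEA2 (log2 difference -4.15 ± 0.19 (SE), adjusted p = 4.40e-10). DYRK1B was low in PEA2 but not in PEA1, with 5.49 FPKM there, whereas CHI3L1 was low in both PEA lines, at 0.634 FPKM in PEA1.

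FAT1, an atypical cadherin that acts as a tumor suppressor in several cancers, was the counterpart of the chromosome 9 stretch on the PEA2 side. At chr4:187644601-187645600 PEA2 had 1 read in all 3 libraries together, 0.0550, 0 and 0 FPKM, against 3.84, 3.60 and 4.18 FPKM in PEO4 (log2 difference -4.75 ± 0.33 (SE), adjusted p = 1.03e-08). Over chr4:187596901-187650100, which spans FAT1, 10 consecutive listed windows had 2 reads in total in PEA2 and a median of 2.44 FPKM in PEO4. Further stretches of 7 windows at chr4:187656301-187767100 and 5 windows at chr4:188048701-188524000 had 0 reads in PEA2. PEA1 had a median of 1.11 FPKM over the first stretch, so in this gene PEA2 differed from its own partner.

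The remaining named start windows toward PEO4 were at KATNAL2, a katanin-like microtubule severing protein, H2BC3, a histone H2B gene, ACOT1, an acyl-CoA thioesterase, and GTF2IRD2, a TFII-I family member. KATNAL2 had 7.79, 8.21 and 6.68 FPKM in PEO4 and 0, 0.173 and 0.266 FPKM in PEA2. H2BC3 had 11.98, 12.3 and 11.2 FPKM in PEO4 and 0.275, 0.231 and 0.444 FPKM in PEA2. ACOT1 had no read in PEA2 and 3.14, 3.07 and 2.29 FPKM in PEO4, and GTF2IRD2 had 0, 0 and 0.0887 against 2.03, 2.50 and 2.44 FPKM. ACOT1 and GTF2IRD2 have near-identical copies next to them, and unique alignment discards reads that match both copies, so their values are uncertain. With bin medians removed, the 8 named start windows toward PEO4 had log2 differences of -5.26 to -2.23.

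**Figure D2:**
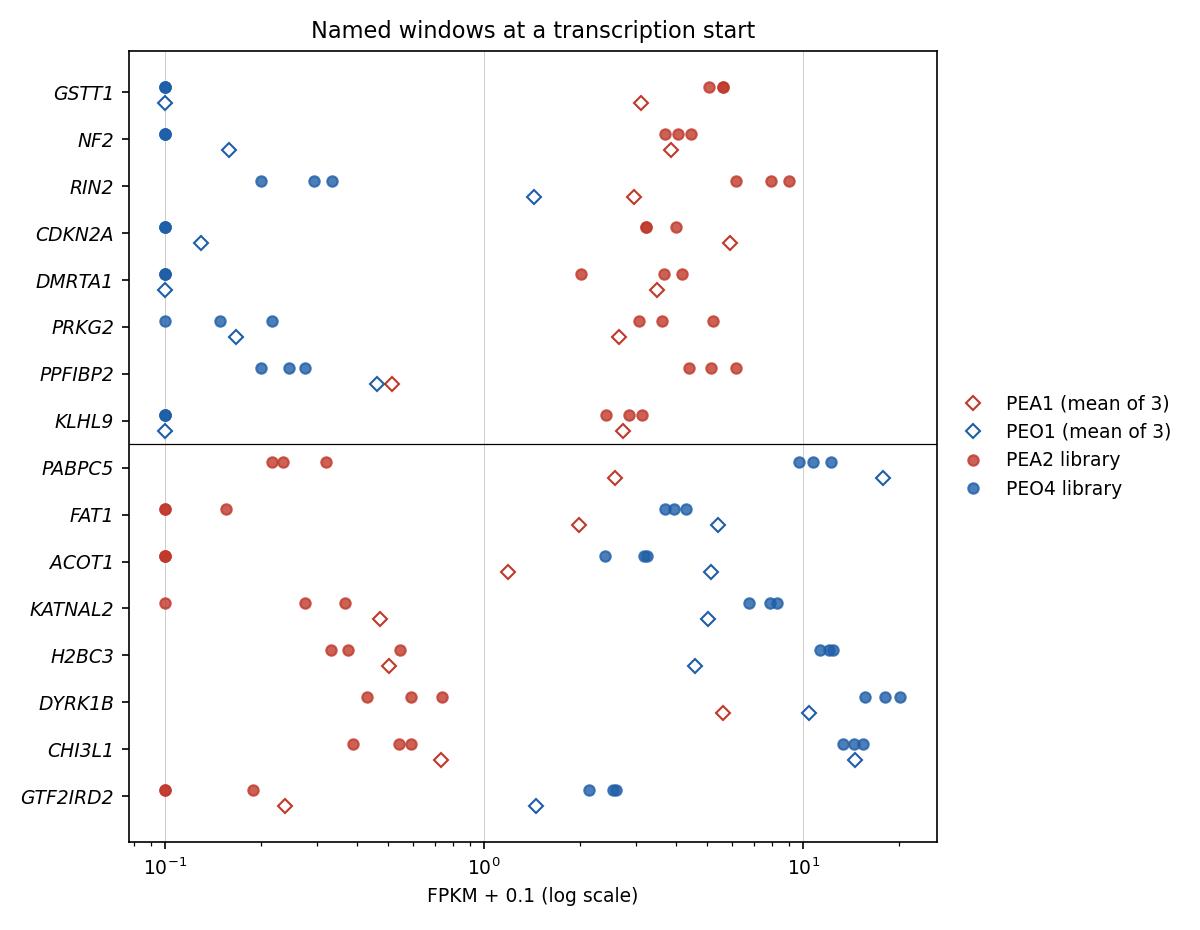
FPKM + 0.1 on a log axis at the 16 named start windows, 8 higher in PEA2 above the line and 8 higher in PEO4 below it; filled points are the 3 libraries of PEA2 (red) and PEO4 (blue), open diamonds the means of PEA1 (red) and PEO1 (blue). At GSTT1, NF2, CDKN2A, DMRTA1 and KLHL9 the 3 PEO4 points lie at 0.1, the position of 0 FPKM, and PEO1 lies at or near it.

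Shorter stretches of at least 3 consecutive listed windows with at most 3 reads per library brought the total to 11 stretches and 48 windows in PEA2 and to 7 stretches and 43 windows in PEO4. In PEA2 they included DPP6, an auxiliary subunit of potassium channels, with 3 windows that had a median of 3.42 FPKM in PEO4 and 0.159 FPKM in PEA1, and 3 windows near NBPF14, a member of a segmentally duplicated family whose values are uncertain. In PEO4 they included 4 windows at GSTT1, 3 in an intron of WWOX, 3 near SYNCRIP, an RNA-binding protein, and 3 with another 3 in and near ADAMTS12, a metalloprotease. Near SYNCRIP, PEO4 had 0 reads while PEO1 had a median of 0.953 FPKM.

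Distal windows were named by fitted difference, and the order among windows at or under 3 reads in the lower line cannot be ranked at this depth. Toward PEA2, 1 of the 8 named distal windows lay in an intron of WWOX, an oxidoreductase gene that spans a common fragile site. The window at chr16:78245101-78246100, 112 kb from the nearest start, had 6.76, 4.74 and 5.10 FPKM in PEA2 and no read in PEO4, at least 35.5-fold higher in PEA2 (log2 difference 6.47 ± 0.25 (SE), adjusted p = 1.18e-10). It was at 0.504 FPKM in PEA1 and 0.0372 FPKM in PEO1, and its log2 difference was 4.86 with the median of its 5 Mb bin removed.

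Introns of RIN2 held 3 of the 8 named distal windows toward PEA2. At chr20:19797301-19798300 the PEA2 libraries had 6.98, 5.55 and 5.86 FPKM and the PEO4 libraries 0.0581, 0.0960 and 0 FPKM (log2 difference 6.14 ± 0.26 (SE), adjusted p = 2.27e-10). At chr20:19861201-19862200, 5.46 kb from the RIN2 start, they had 6.98, 4.57 and 6.83 and 0.0581, 0.0480 and 0.0498 FPKM. At chr20:19944901-19945900, for which the start of NAA20, an N-terminal acetyltransferase subunit, is nearest, they had 8.85, 7.28 and 7.37 and 0.116, 0.0480 and 0 FPKM. The NAA20 window and the first RIN2 window are the ones whose AP-1 matches, TGAGTCA and TGACTCA, are printed above.

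The highest level in PEA2 among these windows was near KRBA1, a KRAB domain gene on chromosome 7. There PEA2 had 19.2, 12.3 and 15.6 FPKM and PEO4 0.523, 0.432 and 0.249 FPKM at chr7:149387401-149388400 (log2 difference 5.94 ± 0.20 (SE), adjusted p = 7.94e-11). Near MROH2B on chromosome 5 PEA2 had 8.30, 5.32 and 6.17 FPKM and PEO4 0.0581, 0.0480 and 0 FPKM. In introns of CCL28, a mucosal chemokine, and RAI14, an actin-associated ankyrin protein, also on chromosome 5, PEA2 had 9.34, 7.17 and 8.30 and 9.51, 7.17 and 8.34 FPKM, against 0.174, 0.192 and 0 and 0.116, 0.240 and 0.0996 FPKM in PEO4. Only the RAI14 window was above 1 FPKM in PEA1 and below it in PEO1 among these 4, at 4.39 FPKM in PEA1 and 0.220 FPKM in PEO1. With bin medians removed, the KRBA1, MROH2B, CCL28 and RAI14 windows had log2 differences of 3.51, 4.73, 4.565 and 3.17.

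Toward PEO4, 2 of the 8 named distal windows lay in the intergenic stretch beyond FAT1. At chr4:187761601-187762600 PEO4 had 6.63, 6.38 and 6.77 FPKM and PEA2 no read, at least 41.97-fold lower in PEA2 (log2 difference -5.60 ± 0.28 (SE), adjusted p = 7.13e-10), and at chr4:187686001-187687000, the window of the first homeobox sequence above, PEO4 had 4.30, 4.27 and 4.43 FPKM and PEA2 again none. PEA1 was at 0.332 and 0.381 FPKM in these windows, low as well, unlike at the FAT1 start.

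An intron of CBLB, an E3 ubiquitin ligase that restrains receptor signaling, had 10.5, 11.9 and 10.5 FPKM in PEO4 and 0.0550, 0.0578 and 0.133 FPKM in PEA2 at chr3:105510601-105511600 (log2 difference -5.24 ± 0.23 (SE), adjusted p = 2.97e-10). An intron of DCC, a netrin receptor, had 12.4, 11.5 and 12.7 against 0.165, 0.173 and 0.0444 FPKM, and an intron of GRIN2A, an NMDA receptor subunit, 9.19, 9.74 and 8.57 against 0, 0.116 and 0.133 FPKM. Intergenic windows near CBLN2, AUTS2 and CITED2, the last being the nearest start at a distance of 1228 kb and a cofactor of CBP and p300, had means of 8.16, 7.74 and 7.90 FPKM in PEO4 and 0.0569, 0.0636 and 0.0662 FPKM in PEA2. PEO1 was above 2 FPKM and PEA1 below 1 FPKM at all 8 of these windows. Their log2 differences were -5.60 to -3.29 with bin medians removed.

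**Figure D3:**
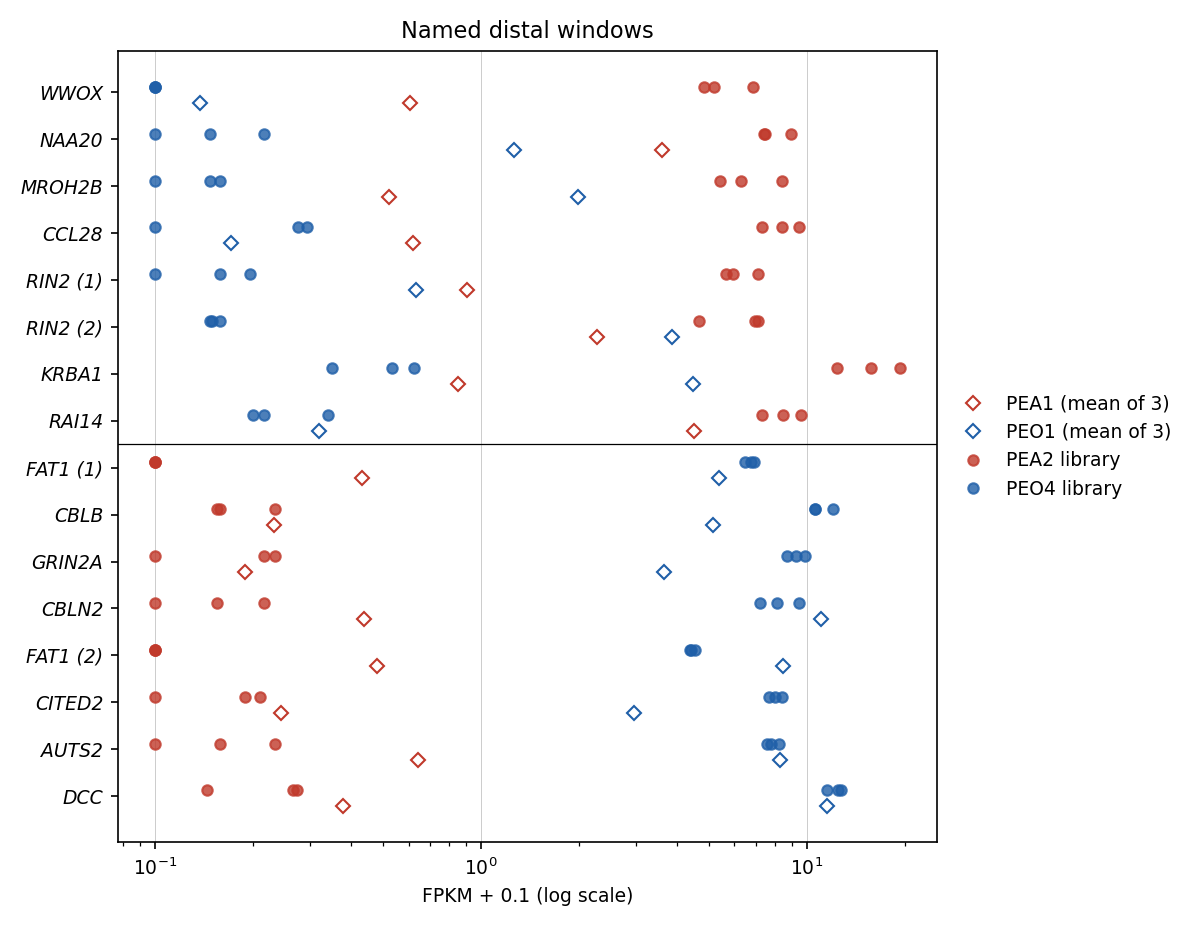
FPKM + 0.1 on a log axis at the 16 named distal windows, labeled by the gene with the nearest start, 8 higher in PEA2 above the line and 8 higher in PEO4 below it; filled points are libraries of PEA2 (red) and PEO4 (blue), open diamonds the means of PEA1 (red) and PEO1 (blue). Below the line the PEO1 diamonds lie near the PEO4 points and the PEA1 diamonds near the PEA2 points, whereas above the line neither diamond has a fixed side.

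At the 4904 distal windows higher in PEO4, median levels were 3.27 FPKM in PEO4, 2.29 in PEO1, 0.346 in PEA2 and 0.395 in PEA1. At the 7781 distal windows higher in PEA2 they were 2.86 FPKM in PEA2, 0.724 in PEA1, 0.458 in PEO4 and 0.814 in PEO1. On this deposited scale PEO1 was thus near PEO4 at the first set, whereas at the second PEA1 was no higher than PEO1. The listed windows took 38.9 to 40.8% of the reads in PEO1 and 12.8 to 16.8% in PEA1. After quantile normalization the median of PEA1 minus PEO1 was 0.39 at the second set, positive in 58.9%, against 38.2% of all distal windows. At the first set it was -1.74, negative in 88.6%, against 61.8%. These values cover only windows tested between the partners. A2780 and CP70 had medians from 0.344 to 0.455 FPKM at both sets. The windows were chosen by PEA2 and PEO4, so only the levels of the other lines add to the choice.

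**Figure D4:**
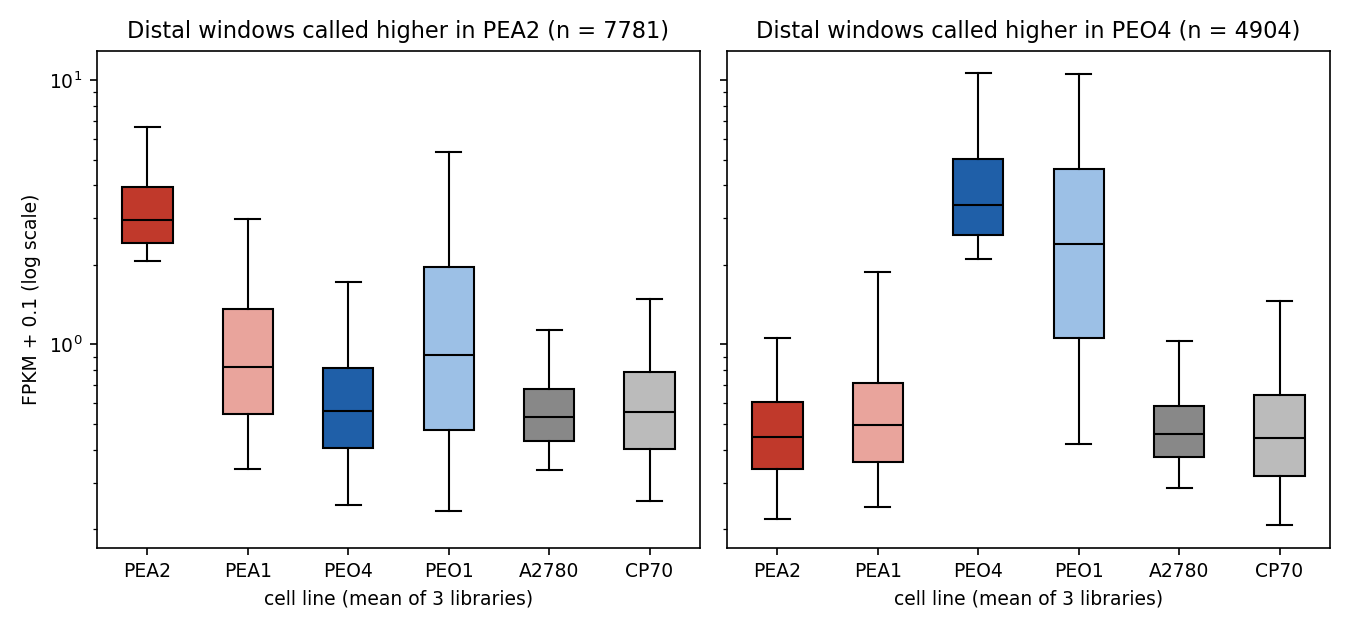
FPKM + 0.1 on a log axis in each of the 6 lines (mean of 3 libraries) at the 7781 distal windows called higher in PEA2 and the 4904 called higher in PEO4; boxes span the 25th to 75th percentile with the median as a line, and whiskers the 5th to 95th. PEO1 lies close to PEO4 in the right panel, with a median of 2.29 FPKM, whereas PEA1 lies well below PEA2 in the left panel, with 0.724 FPKM.

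PEA1 and PEO1 were compared by the same test in libraries that the calls did not use. Of 76425 windows tested there, 5395 (7.06%) were called higher in PEA1 and 7949 (10.4%) higher in PEO1. Of the 4904 distal windows higher in PEO4 against PEA2, 26.6% were also called higher in PEO1 and 0.591% higher in PEA1, where 11.999% of all distal windows were called higher in PEO1. Of the 7781 distal windows higher in PEA2, 8.76% were also called higher in PEA1 and 3.61% higher in PEO1, where 5.17% of all were called higher in PEA1. At start windows 23.4% of the 389 higher in PEA2 were also higher in PEA1 and 3.38% of the 1271 higher in PEO4 were also higher in PEO1, against 3.17% and 1.26% of all start windows. In these shares a window under the minimum level between the partners counts as not called. Of the 7781 distal windows higher in PEA2, 3542 were tested between the partners. Of these 19.3% were called higher in PEA1, against 6.62% of all distal windows tested in both comparisons. Of the 4904 higher in PEO4, 3070 were tested, and 42.5% of these were called higher in PEO1, against 15.4%.

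A fit over the 12 libraries of the 4 lines tested whether the difference between PEA2 and PEO4 exceeded that between PEA1 and PEO1. Of 81671 windows, 20170 (24.7%) were called for this difference of differences, 10549 (12.9%) positive and 9621 (11.8%) negative. Among the calls of PEA2 against PEO4, 3710 of the 9159 higher in PEA2 and 3080 of the 7347 higher in PEO4 were called with the same sign. The windows were chosen by the difference between PEA2 and PEO4, and the same libraries enter this fit, which favors calls of the same sign, so these counts are a description.

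Neighboring windows often differed in the same direction. Of the variance in log2 difference between windows 35.9% lay between bins of 5 Mb, and of 573 bins with at least 20 windows 78 had a median above 1, 87 a median below -1 and 237 a median within 0.5 of 0. After chromosome 9, the highest medians were 3.17 at 20 to 25 Mb and 2.71 at 15 to 20 Mb of chromosome 20, where RIN2 lies, 2.73 and 2.69 at 30 to 35 and 35 to 40 Mb of chromosome 5, 2.43 at 145 to 150 Mb of chromosome 7, where KRBA1 lies, 2.34 at 15 to 20 Mb of chromosome 5 and 2.23 at 25 to 30 Mb of chromosome 16. In the bin at 20 to 25 Mb of chromosome 20 the median level was 3.22 FPKM in PEA2, 0.375 in PEO4, 0.819 in PEA1 and 1.15 in PEO1. The lowest median was -2.03, at 0 to 5 Mb of chromosome 16, with 0.848 FPKM in PEA2, 4.68 in PEO4 and 2.07 in PEA1, followed by -1.90 at 70 to 75 Mb of chromosome 7 and -1.89 at 80 to 85 Mb of chromosome 2. With the median of each bin removed, 4376 of the calls higher in PEA2 and 3269 of those higher in PEO4 were still called, and 1 call changed direction. Copy number was not measured here, and its part in these differences was not tested.

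The genes nearest to the most called distal windows within 100 kb lay partly in these bins. Over all genes, 18.3% of the 29466 distal windows within 100 kb were called higher in PEA2 and 8.24% higher in PEO4. KRBA1 was nearest to 33 distal windows tested, 32 of them higher in PEA2, and its neighbor ZNF467, a zinc finger gene, to 34, of which 29 were higher in PEA2. FHOD3, a formin that assembles actin in the sarcomere, had 31 of 33 higher in PEA2, with medians per library of 2.83 to 3.52 FPKM in PEA2 and 0.448 to 0.480 FPKM in PEO4. RIN2 had 28 of 30 and CNTNAP2, a neurexin family gene, 22 of 28, although the start window of CNTNAP2 itself differed by -0.58 (log2). With bin medians removed the calls fell to 4, 0, 5, 6 and 1 of these windows for KRBA1, ZNF467, FHOD3, RIN2 and CNTNAP2.

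Toward PEO4 the counts were smaller. AHDC1, an AT-hook protein gene, was nearest to 20 distal windows tested, 17 of them higher in PEO4, with library medians of 3.98 to 4.18 FPKM in PEO4 and 0.385 to 0.578 FPKM in PEA2, and its start window was also called (log2 difference -2.45). ANKFN1 had 10 of 11, GRIN2A 10 of 14, RFLNA, a refilin that bundles actin through filamin, 9 of 20 and ADRA2C, an adrenergic receptor, 7 of 15. The distal windows near RFLNA had library medians of 10.4 to 10.6 FPKM in PEO4 and 0.577 to 0.925 FPKM in PEA2, the highest in PEO4 of these 5 genes. With bin medians removed 1, 1, 3, 3 and 0 of these windows stayed called.

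Motif letters were counted on both strands in the 1000 bases of each distal window, over 17 motifs. AP-1 (TGANTCA) was in 55.4% of the windows higher in PEA2, 45.3% of those higher in PEO4 and 50.9% of all distal windows tested. The repressor motif of ZEB and SNAI proteins (CAGGTG) was in 65.4%, 55.4% and 63.4%. The homeobox letters (TAATTA) were in 21.9%, 31.4% and 22.8%. The forkhead motif (TGTTTAC) was in 17.0% of the windows higher in PEA2 against 12.9% of those higher in PEO4 and the SOX motif (ACAATGG) in 15.0% against 11.9%. The GC content of these sets differed, with medians of 46.4% and 43.3%, and among distal windows of 35 to 45% GC the shares were 63.5%, 50.7% and 61.5% for AP-1 and 33.2%, 39.3% and 35.4% for the homeobox letters. Each of these 5 motifs kept its order between the directions at matched GC content, and for AP-1 the windows higher in PEA2 stood close to all windows while those higher in PEO4 stood below. Motif shares carry no test here.

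Promoters were then read by gene group, with the start window of each gene's canonical transcript and the milder rule of a log2 difference above 1 in size at an adjusted p below 0.05. Of all 17408 start windows tested, 1598 (9.18%) were higher in PEA2 and 5578 (32%) higher in PEO4 by this rule, so a group with more members higher in PEO4 than in PEA2 is like start windows at large. Over 15 lists with 405 genes, 330 had a tested start window, of which 47 were higher in PEA2 and 105 higher in PEO4. The median over all start windows was -0.50, and each list is read beside these values. Without quantile normalization BATF3, ME1, BMP2, PRSS8, OVOL2, FBN1, LYPD1, CDH6, ABCC4, SOX2, KIT and MECOM, all higher in PEA2 below, no longer passed the rule, and removing the median of each 5 Mb bin ended the call of 56 of the 124 single windows examined and turned 6. Among genes whose value after that removal is not given below, the difference then came under 1 in size for HOXA13, HOXB4, HOXB5, FOXL2, MECOM, WT1, PRSS8, MMP2, LYPD1, CCN2, TGFB1, TGFB2, BMP2, THBS1, LAMA3, ITGB4, FGFR3, KIT, SOX2, HMGA2, AXIN2, ATP7A, ABCC4, LRRC8A, KEAP1, GCLC, GCLM, GSR, ME1, CDKN2A, CDKN2B, CCND2, BBC3, PMAIP1, TNFRSF10A, STAT2 and NLRC5.

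At start windows HOX genes had more members higher in PEA2 than in PEO4, the reverse of start windows at large. In this list 9 of 18 tested members were higher in PEA2 and 3 were higher in PEO4, with a median log2 difference of 1.02. HOXD9, which is expressed in the upper Müllerian duct, had 5.28, 3.76 and 4.97 FPKM in PEA2 and 0.407, 0.432 and 0.548 FPKM in PEO4 (log2 difference 3.70 ± 0.19 (SE), adjusted p = 8.24e-10). HOXA4 had 2.06 ± 0.310 FPKM in PEA2 and 0.263 ± 0.0773 FPKM in PEO4 (log2 difference 2.84, adjusted p = 2.41e-07), HOXD13 1.84 ± 0.0912 FPKM in PEA2 and 0.464 ± 0.211 FPKM in PEO4 (log2 difference 2.04, adjusted p = 7.72e-06) and HOXA13 2.64 ± 0.508 FPKM in PEA2 and 0.756 ± 0.0592 FPKM in PEO4 (log2 difference 2.00, adjusted p = 4.57e-07). The HOXB cluster went the other way, with 0.989, 1.04 and 1.15 FPKM in PEA2 and 10.6, 10.1 and 10.7 FPKM in PEO4 at HOXB2 (log2 difference -2.48 ± 0.16 (SE), adjusted p = 6.47e-09) and with HOXB4 and HOXB5 also higher in PEO4. The members higher in PEA2 belong to the HOXA and HOXD clusters. Genes of a cluster lie next to each other, so the 9 members are not independent promoters. Of the 15 distal windows nearest to HOX genes 3 were called higher in PEA2 and 4 higher in PEO4, with a median log2 difference of -1.15. Over the distal windows near any gene 18.3% were called higher in PEA2 and 8.24% higher in PEO4, with a median of 0.39. All HOX members named here kept their direction under every scaling, and with bin medians removed HOXD9 differed by 2.99 and HOXB2 by -1.02.

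Müllerian and gonadal lineage factors were split, and 5 of 17 tested members were higher in PEA2 and 4 were higher in PEO4, with a median log2 difference of -0.04. SOX17, a partner of PAX8 in the fallopian tube epithelium, had 2.33 ± 0.334 FPKM in PEA2 and 0.661 ± 0.218 FPKM in PEO4 (log2 difference 1.98, adjusted p = 2.55e-06), and FOXL2, PAX2 and MECOM were also higher in PEA2, by 1.56, 1.44 and 1.31 (log2). The FOXL2 window also holds the start of FOXL2NB, so these neighbors cannot be told apart. ESR1, the estrogen receptor, went toward PEO4 with 7.38, 7.87 and 7.32 against 1.48, 0.867 and 0.799 FPKM (log2 difference -2.18 ± 0.21 (SE), adjusted p = 2.57e-07), and 5 of the 11 distal windows nearest to it were called higher in PEO4 and none higher in PEA2. Of the distal windows near any gene, 8.24% were called higher in PEO4 and 18.3% higher in PEA2. WT1, a marker of serous carcinoma, and TBX2 were higher in PEO4 as well, with log2 differences of -1.02 and -1.05, but TBX2 turned to 0.44 with bin medians removed.

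Among genes of epithelial identity 4 of 25 tested members were higher in PEA2 and 9 were higher in PEO4, with a median log2 difference of -0.61, a share of 36% toward PEO4 beside the 32% of all start windows. GRHL2, which maintains epithelial junctions, had 30.2, 33.5 and 27.6 FPKM in PEO4 and 2.64, 2.83 and 2.75 FPKM in PEA2 (log2 difference -2.25 ± 0.13 (SE), adjusted p = 2.71e-09), with 6 of its 15 distal windows higher in PEO4 and none higher in PEA2. The shares over the distal windows near any gene were 8.24% and 18.3%. OVOL1, a repressor of mesenchymal genes, had 1.08 ± 0.687 FPKM in PEA2 and 11.6 ± 1.98 FPKM in PEO4 (log2 difference -2.77, adjusted p = 1.60e-05) and SPINT2, an inhibitor of membrane serine proteases, 1.86 ± 0.261 FPKM in PEA2 and 17.2 ± 1.54 FPKM in PEO4 (log2 difference -2.26, adjusted p = 3.15e-09). MUC1, PRSS8, EHF and OVOL2 were higher in PEA2 by 1.33 to 1.53, of which OVOL2, which lies in the chromosome 20 bin at 15 to 20 Mb, turned to -1.38 with bin medians removed. Of 6 keratins tested 4 were higher in PEO4 and none in PEA2. KRT8 and KRT18, the keratin pair of simple epithelium, had 1.57 ± 0.166 FPKM in PEA2 and 11.8 ± 1.28 FPKM in PEO4 (log2 difference -2.04, adjusted p = 2.69e-08) and 1.27 ± 0.278 FPKM in PEA2 and 8.14 ± 1.40 FPKM in PEO4 (log2 difference -1.93, adjusted p = 1.72e-07). With bin medians removed they differed by -0.73 and -0.62, and KRT19 by -0.40. KRT15, the weakest of the 4, lost its direction with bin medians removed (-1.09 to 0.07).

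Mesenchymal genes gave 4 of 19 higher in PEA2 and 2 higher in PEO4, with a median log2 difference of 0.16. TGFBI, a matrix protein induced by TGF-beta, had 5.99, 4.45 and 5.10 FPKM in PEA2 and 1.45, 1.30 and 1.64 FPKM in PEO4 (log2 difference 2.54 ± 0.15 (SE), adjusted p = 3.08e-09), with 7 of 14 distal windows higher in PEA2. S100A4, MMP2 and FBN1 were higher in PEA2 by 1.66, 1.28 and 1.19. SNAI1, a repressor of E-cadherin, was higher in PEO4, with 2.74 ± 0.242 FPKM in PEA2 and 22.7 ± 4.10 FPKM in PEO4 (log2 difference -1.88, adjusted p = 8.44e-08). CDH1 and CDH2, which encode E-cadherin and N-cadherin, did not pass the rule, at -0.15 and -0.06. Of the distal windows nearest to mesenchymal genes 23.9% of 71 were called higher in PEA2 and 2.82% higher in PEO4, against 18.3% and 8.24% of the 29466 distal windows within 100 kb of any gene.

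For ovarian cancer surface and serum markers 2 of 13 tested members were higher in PEA2 and 5 were higher in PEO4, with a median log2 difference of -0.02. MSLN, the gene of mesothelin, had 15.2, 17.5 and 13.5 FPKM in PEO4 and 1.26, 1.10 and 0.843 FPKM in PEA2 (log2 difference -2.94 ± 0.17 (SE), adjusted p = 2.67e-09), and lies in the chromosome 16 bin with the lowest median, so that its difference was -0.91 with bin medians removed. KLK7, a kallikrein protease, had 0.365 ± 0.113 FPKM in PEA2 and 3.18 ± 0.198 FPKM in PEO4 (log2 difference -2.58, adjusted p = 1.94e-07). CDH6 and LYPD1 were higher in PEA2 by 1.20 and 1.28, but CDH6, on the chromosome 5 arm that was high in PEA2, turned to -1.53 with bin medians removed.

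**Figure D5:**
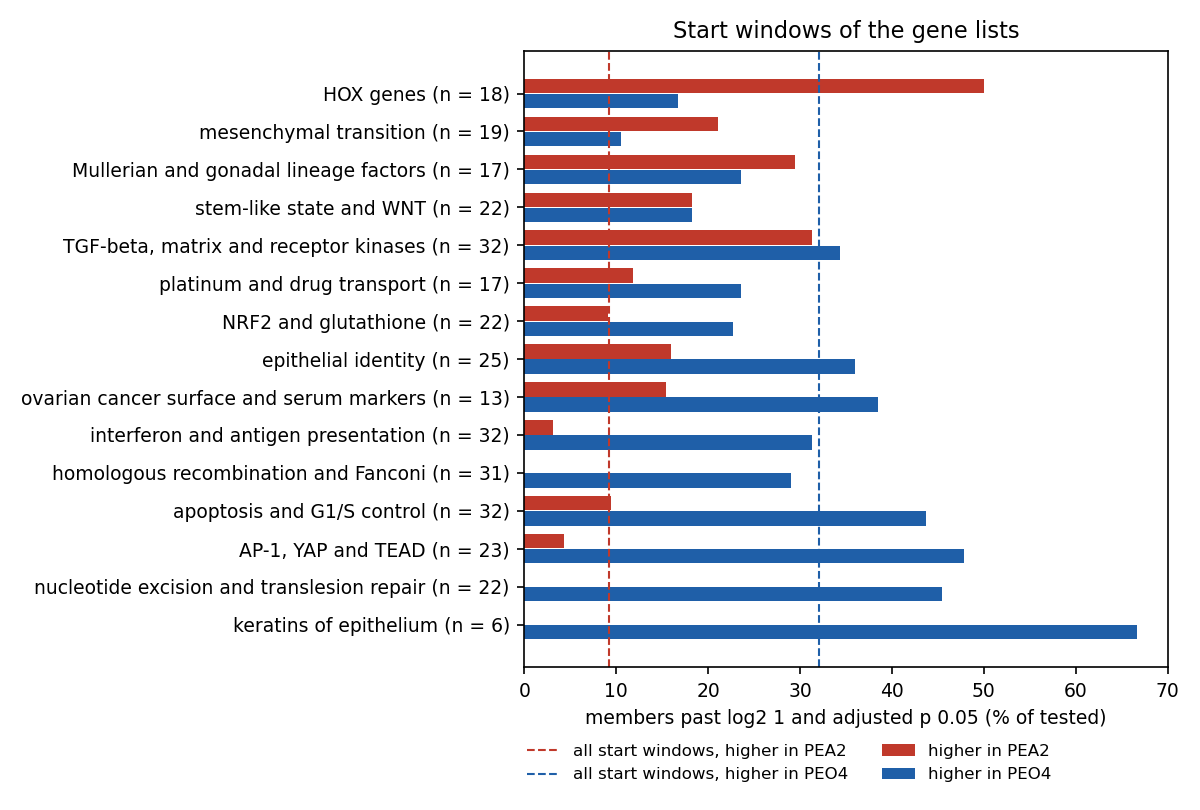
Percentage of tested members of each of 15 gene lists whose start window was higher in PEA2 (red) or in PEO4 (blue) by a log2 difference above 1 at an adjusted p below 0.05, with the number tested in parentheses and the shares of all start windows, 9.18% and 32%, as dashed lines. HOX genes reach 50% toward PEA2, and no member of the repair lists or of the keratins was higher in PEA2.

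AP-1, YAP and TEAD genes gave 11 of 23 start windows higher in PEO4, 47.8% beside the 32% of all start windows, and 1 higher in PEA2. The median log2 difference was -0.98. FOSB, a FOS protein, had 12.2, 13.9 and 11.1 FPKM in PEO4 and 0.605, 1.04 and 1.15 FPKM in PEA2 (log2 difference -2.88 ± 0.22 (SE), adjusted p = 2.42e-08). JUND had 2.62 ± 0.0445 FPKM in PEA2 and 28.4 ± 3.63 FPKM in PEO4 (log2 difference -2.25, adjusted p = 1.73e-09), JUNB 2.16 ± 0.172 FPKM in PEA2 and 18.05 ± 1.39 FPKM in PEO4 (log2 difference -2.06, adjusted p = 8.23e-09) and CCN2, a target of YAP, 1.12 ± 0.230 FPKM in PEA2 and 8.996 ± 0.644 FPKM in PEO4 (log2 difference -2.25, adjusted p = 3.40e-08). The AP-1 motif, in contrast, was more common in the distal windows higher in PEA2 than in those higher in PEO4, as given above. BATF3 was the member higher in PEA2, by 1.03, and turned to -0.20 with bin medians removed. FOSB, JUNB and JUND lie on chromosome 19, and without the bin medians they differed by -1.19, -0.42 and -0.94.

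TGF-beta, matrix and receptor kinase genes differed in both directions, and 10 of 32 tested members were higher in PEA2 and 11 were higher in PEO4, with a median log2 difference of -0.32. LAMA3, a laminin chain of the epithelial basement membrane, had 8.63, 6.42 and 6.21 FPKM in PEA2 and 3.20, 2.98 and 2.59 FPKM in PEO4 (log2 difference 2.19 ± 0.14 (SE), adjusted p = 4.45e-09), and 14 of its 19 distal windows were called higher in PEA2. The ligands were divided, with TGFB2 and BMP2 higher in PEA2 by 2.01 and 1.5 and TGFB1 higher in PEO4 (-1.54). The receptors were divided too, FGFR1 being 2.94 ± 0.213 FPKM in PEA2 and 0.953 ± 0.177 FPKM in PEO4 (log2 difference 1.99, adjusted p = 7.72e-07) and FGFR3 1.79 ± 0.218 FPKM in PEA2 and 16.05 ± 1.96 FPKM in PEO4 (log2 difference -2.21, adjusted p = 6.64e-09). ITGB4, a laminin-binding integrin chain, and THBS1, a matrix glycoprotein, were higher in PEO4 with log2 differences of -1.77 and -1.55. Distal windows near the list were called higher in PEA2 in 19.7% and higher in PEO4 in 2.52% of 238, against 18.3% and 8.24% over all genes.

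Genes of a stem-like state and WNT signaling gave 4 of 22 start windows in each direction. IGF2BP3, an RNA-binding oncofetal protein, had 3.88 ± 0.159 FPKM in PEA2 and 0.953 ± 0.177 FPKM in PEO4 (log2 difference 2.53, adjusted p = 1.90e-08), and FZD10, SOX2 and KIT were higher in PEA2 by 1.35 to 1.53, with 8 of 13 distal windows near FZD10 called higher in PEA2. DKK1, a secreted WNT antagonist, had 0.687 ± 0.0441 FPKM in PEA2 and 6.21 ± 0.501 FPKM in PEO4 (log2 difference -2.52, adjusted p = 1.89e-08) and AXIN2, a target and inhibitor of WNT signaling, 2.15 ± 0.193 FPKM in PEA2 and 17.5 ± 2.60 FPKM in PEO4 (log2 difference -2.02, adjusted p = 7.96e-09). HMGA2 and SOX9 were higher in PEO4 with log2 differences of -1.61 and -1.45, and SOX9 turned to 0.15 with bin medians removed although 5 of its 10 distal windows were called higher in PEO4 and 1 higher in PEA2. The counts near FZD10 and SOX9 stand beside 18.3% called higher in PEA2 and 8.24% higher in PEO4 over the distal windows near any gene.

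Nucleotide excision and translesion repair removes or bypasses platinum adducts, and 10 of 22 start windows of these genes were higher in PEO4 and none in PEA2. The share toward PEO4 was 45.5%, beside 32% of all start windows. The median log2 difference was -0.97, and 6 of the 10 also passed the stricter rule, which 7.30% of all start windows passed toward PEO4. REV3L, the catalytic subunit of polymerase zeta, had 19.5 ± 0.488 FPKM in PEO4 and 1.98 ± 0.233 FPKM in PEA2 (log2 difference -2.33 ± 0.13 (SE), adjusted p = 1.52e-09). LIG1, a DNA ligase, had 1.94 ± 0.262 FPKM in PEA2 and 17.3 ± 1.70 FPKM in PEO4 (log2 difference -2.18, adjusted p = 1.81e-08) and XAB2, an XPA-binding protein, 1.31 ± 0.0552 FPKM in PEA2 and 11.8 ± 1.15 FPKM in PEO4 (log2 difference -2.29, adjusted p = 5.64e-09). These 3 genes kept their direction under every scaling, but with bin medians removed the differences were -0.49 to -0.98, all under 1 in size.

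Homologous recombination and Fanconi genes had 9 of 31 start windows higher in PEO4, 29.0%, and none higher in PEA2, with a median log2 difference of -0.52, close to the -0.50 of all start windows. XRCC2, a recombination factor, had 1.54 ± 0.182 FPKM in PEA2 and 7.87 ± 0.640 FPKM in PEO4 (log2 difference -1.61, adjusted p = 2.35e-07) and BRCA1 1.63 ± 0.526 FPKM in PEA2 and 8.27 ± 1.12 FPKM in PEO4 (log2 difference -1.57, adjusted p = 2.30e-05). TP53BP1, which restrains end resection, was higher in PEO4 with a log2 difference of -1.44. With bin medians removed XRCC2, BRCA1 and TP53BP1 differed by -1.90, -0.16 and -0.20. No member passed the stricter rule, which 7.30% of all start windows passed toward PEO4, and the BRCA1 window is a promoter shared with the neighboring gene NBR2.

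Platinum and drug transport genes gave 2 of 17 higher in PEA2 and 4 higher in PEO4. TMEM205, a membrane protein linked to cisplatin resistance, had 16.2, 17.1 and 14.1 FPKM in PEO4 and 0.934, 1.04 and 1.51 FPKM in PEA2 (log2 difference -2.86 ± 0.18 (SE), adjusted p = 5.02e-09). LRRC8A, a subunit of the volume-regulated anion channel that takes up cisplatin, had 1.46 ± 0.0953 FPKM in PEA2 and 12.3 ± 1.27 FPKM in PEO4 (log2 difference -2.19, adjusted p = 1.16e-08). Of the efflux pumps, ABCB1 and the copper transporter ATP7A were higher in PEO4 with log2 differences of -1.21 and -1.01, and ABCG2 and ABCC4 were higher in PEA2 by 1.66 and 1.08. SLC31A1, the copper importer CTR1, had 2.64, 2.02 and 2.17 FPKM in PEA2 and 8.60, 8.40 and 6.53 FPKM in PEO4 and just missed the rule at -0.99, and was named after its value was seen.

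Among NRF2 and glutathione genes 2 of 22 tested members were higher in PEA2 and 5 were higher in PEO4, with a median log2 difference of -0.24. AKR1B10, an aldo-keto reductase induced by NRF2, had 2.52 ± 0.532 FPKM in PEA2 and 0.587 ± 0.280 FPKM in PEO4 (log2 difference 2.33, adjusted p = 3.71e-06). ME1, which makes NADPH, shows how the scale enters, since it had 10.8 ± 1.66 FPKM in PEA2 and 11.95 ± 0.572 FPKM in PEO4, a normalized log2 difference of 1.33 that was -0.15 without quantile normalization. GSR, which regenerates glutathione, had 1.58 ± 0.369 FPKM in PEA2 and 12.6 ± 0.660 FPKM in PEO4 (log2 difference -2.15, adjusted p = 2.94e-08), and KEAP1, the repressor of NRF2, GCLC and GCLM, which make glutathione, were higher in PEO4 with log2 differences of -1.92, -1.78 and -1.65.

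In apoptosis and G1/S control 3 of 32 tested members were higher in PEA2 and 14 were higher in PEO4, with a median log2 difference of -0.63. The share toward PEO4 was 43.75%, beside 32% of all start windows. CDKN2B had 3.85, 3.41 and 3.59 FPKM in PEA2 and 1 read in the 3 PEO4 libraries together, and CDKN2A at its canonical start had 3.24, 2.95 and 3.33 FPKM in PEA2 and no read in PEO4. CDK4, the kinase that p16 inhibits, was higher in PEO4, with 13.7, 14.8 and 11.4 FPKM against 1.54, 0.809 and 1.64 FPKM (log2 difference -2.49 ± 0.21 (SE), adjusted p = 7.85e-08). TNFRSF10A, a TRAIL receptor, had 1.19 ± 0.279 FPKM in PEA2 and 8.27 ± 1.07 FPKM in PEO4 (log2 difference -2.07, adjusted p = 1.19e-07), and the p53 targets BBC3 and PMAIP1, which encode PUMA and NOXA, were both higher in PEO4 with a log2 difference of -1.88. CCND2 was higher in PEA2, with 1.58 ± 0.439 FPKM in PEA2 and 0.507 ± 0.128 FPKM in PEO4 (log2 difference 1.63, adjusted p = 5.18e-05).

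Interferon and antigen presentation genes had 10 of 32 start windows higher in PEO4, 31.2%, and 1 higher in PEA2. HLA-B had 9.48, 10.4 and 8.52 FPKM in PEO4 and 0.495, 0.694 and 0.976 FPKM in PEA2 (log2 difference -2.95 ± 0.22 (SE), adjusted p = 2.16e-08), HLA-C 1.68 ± 0.140 FPKM in PEA2 and 12.4 ± 0.762 FPKM in PEO4 (log2 difference -1.99, adjusted p = 2.05e-08) and B2M, the shared light chain of class I molecules, 2.19 ± 0.370 FPKM in PEA2 and 12.2 ± 0.186 FPKM in PEO4 (log2 difference -1.58, adjusted p = 1.08e-07). STAT2 was higher in PEO4 with a log2 difference of -1.81 and NLRC5, the activator of class I genes, higher in PEA2 by 1.57. The HLA genes vary in sequence and have close copies, so reads that fail to align uniquely may be missing from either line.

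Of the 10 genes that the study names for expression or regulation, 9 had a tested start window. SPHK1, a sphingosine kinase, had 2.77 ± 0.0722 FPKM in PEA2 and 16.7 ± 1.38 FPKM in PEO4 (log2 difference -1.48), and with bin medians removed it differed by 0.12. BCAM, a laminin receptor, had 0.932 ± 0.294 and 4.53 ± 0.491 FPKM (log2 difference -1.75), and with bin medians removed it differed by -0.06. THBS1 and SOX9, given above, also passed the milder rule toward PEO4. PARP9 (0.50), VEPH1 (0.85), TLE4 (-0.25), CCDC80 (-0.52) and DDX60L (-0.74) had log2 differences that did not reach 1 in size, and MAP1A had no listed start window. The PARP9 window also holds the start of DTX3L, so the pair cannot be told apart.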

How the data were processed

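ATAC-seq libraries of PEA2 and PEO4 (3 each) were compared, with PEA1, PEO1, A2780 and CP70 for reference. Per the labels and the study's methods the authors used Picard against duplicate reads and Bowtie2 for unique alignments to hg19, filtered out blacklist and mitochondrial sequence, and counted what remained per window (1 kb, stepped by 900 bp) with featureCounts; versions are not given in the sources used here. The deposited unit is FPKM, which equals RPM because each window is 1 kb long. All values (100%) of these 6 libraries were within 0.01 of a whole multiple of 1 read, and reads per window and implied library totals were recovered from them. Window numbers matched GRCh37 chromosome lengths at 23 of 23 steps. Median reads per window were 28 to 47, and limits from reads cover counting error only. Replicates differed by a chi-square of 1.09 to 1.54 per window, where sampling noise gives about 1, and none were merged.

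log2(FPKM + 0.1) was quantile-normalized over the 6 libraries, windows with a mean above 1 FPKM were fitted with limma 3.58.1 (eBayes with trend, R 4.3.3), and p-values were Benjamini-Hochberg adjusted. The study weighted counts with voom, in place of which the trend was used. Starts came from GENCODE v44 (lifted to GRCh37), protein-coding basic transcripts. The fit was tested on simulated data. edgeR 4.0.16 on recovered reads, other scalings, filters and pseudocounts were alternatives, and the fit over 12 libraries and the shares at 35 to 45% GC were chosen after seeing the data. Named were, per direction, the 8 called start and the 8 called distal windows with the largest non-overlapping difference at least 50 kb apart, the 5 genes nearest to most called distal windows within 100 kb, up to 4 list members past the milder rule, the study's genes, and stretches of at least 3 windows with at most 3 reads; other genes were named after their values were seen. A fold against 0 reads is a bound set against 3 reads per library. The comparison, lists and rules were chosen with earlier results of these data known. Some list members are not reported here. Python 3.11.15, pandas 2.3.3 and pysam 0.24.0 were used.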

Additional observations from a re-analysis of the deposited data

Results flagged for a closer look

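At 19 of the 32 named windows the difference between PEA2 and PEO4 departed from that between PEA1 and PEO1 by more than 2 on the log2 scale at an adjusted p below 0.001, by a limma fit over the 12 libraries of these lines with Benjamini-Hochberg adjustment over 81671 windows. By the same rule 24.7% of the 81671 windows were called. Each value is (PEA2 minus PEO4) minus (PEA1 minus PEO1) on the normalized log2 scale, so a positive value means that PEA2 exceeded PEO4 by more than PEA1 exceeded PEO1.

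Toward PEA2, the start windows were at RIN2 (3.54), a RAB5 exchange factor, and PPFIBP2 (4.39), a liprin. The distal windows lay near MROH2B (7.16), KRBA1 (7.02), CCL28 (4.05), WWOX (4.004) and NAA20 (3.77), and at RIN2 at the window starting at 19797301 (4.75) and at the one starting at 19861201 (5.79). Near KRBA1 and MROH2B the partner lines differed the opposite way, with 0.750 against 4.37 FPKM and 0.423 against 1.88 FPKM in PEA1 and PEO1.

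Toward PEO4, the start windows were at DYRK1B (-4.89), FAT1 (-4.48), ACOT1 (-3.67), PABPC5 (-3.46), KATNAL2 (-2.34) and H2BC3 (-2.21). The distal windows lay beyond FAT1 (-2.98 at the window starting at 187761601 and -2.17 at the one starting at 187686001) and near AUTS2 (-2.82) and CITED2 (-2.11). The named windows were chosen for their difference between PEA2 and PEO4, and the same libraries enter this fit. That choice favors values away from 0, so the count of named windows is a description.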

How the results depend on the processing

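The counts of windows called higher in PEA2 and in PEO4, 9159 and 7347, became 6401 and 13870 without quantile normalization, 5439 and 4517 with 5 Mb bin medians removed, 5339 and 3182 with a pseudocount of 0.5, 256 and 1538 with a minimum mean of 5 FPKM and 19599 and 21262 with thresholds of 1 and 0.05. The minimum of 5 FPKM tested 12998 windows, and the share of calls higher in PEA2 was 14.3% there, 62.7% with the pseudocount of 0.5 and 62.4% by edgeR on recovered reads (11681 and 7043 windows). Start windows called, 1660, became 4643 without quantile normalization, 3097 with median centring, 434 with bin medians removed, 954 with the pseudocount of 0.5, 923 with the minimum of 5 FPKM, 728 with an upper depth limit and 7176 with the milder thresholds. Distal windows called, 12685, became 6617 with the pseudocount of 0.5, 498 with the minimum of 5 FPKM and 25553 with the milder thresholds. List members past the milder rule, 152, became 70 with bin medians removed, 76 with the minimum of 5 FPKM and 74 with the upper depth limit. Calls shared with PEA1 against PEO1, 2362, became 9350 with the milder thresholds. Beyond the tested windows, sizes and filters that these settings change, the cause was not tested.

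Without 1 library at a time, 8659 to 9932 windows were higher in PEA2 and 6726 to 8306 higher in PEO4. Of 124 single windows, 6 turned with bin medians removed, BATF3 to -0.20, TBX2 to 0.44, OVOL2 to -1.38, KRT15 to 0.071, CDH6 to -1.53 and SOX9 to 0.15, and 1 turned without quantile normalization, ME1 to -0.15. Leaving out PEO4 replicate 1 took 8 start windows below the milder rule, among them BATF3, TBX2, WT1, KRT15, ABCB1, ATP7A and ABCC4, which stood at -1.21 to -1.01 or 1.03 to 1.08 with all libraries and at -0.999 to -0.91 or 0.91 to 0.98 without it. BATF3 also fell below it without PEO4 replicates 2 and 3, TBX2 without 2, WT1 without 3, and ATP7A without PEO4 replicate 2 and without PEA2 replicates 2 and 3. Labels give both lines replicate numbers 1 to 3. Deviations of same-numbered libraries correlated at 0.012, 0.056 and -0.0015, and those of differently numbered libraries at -0.066 to 0.052. The numbers thus gave no sign of a pairing, although these weak values cannot exclude one. A fit with the replicate number as a block gave 9159 and 7347 again and changed no call of a single window. In this balanced design the block cannot change the log2 differences, so that fit does not decide whether libraries were paired. Library depth sets a floor of 3 reads, so levels below it in either line cannot be ranked.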
